A study of Homo sapiens with 6 samples.

Results

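The genes of the SLC1A, SLC6A, SLC7A, SLC36A, SLC38A and SLC43A families were followed in erastin-treated retinal pigment epithelium (RPE) cells with and without vitamin K1 (VK1). Members were the rows whose symbol is one of these family names followed by a number, except SLC7A11. The rule gave 44 of the 33496 genes listed, of which 19 averaged 1 FPKM or more across the libraries and are called expressed. FPKM are fragments per kilobase of transcript relative to the mapped fragments, so that levels of different genes can be set side by side. The RNA-seq data comprised 6 libraries of wild-type ARPE-19, an established human RPE line. Each had been exposed to erastin (5 μM, 24 h). Erastin blocks the cystine/glutamate antiporter and thereby starts ferroptosis, an iron-dependent cell death with lipid peroxidation. The Era group (n = 3) received erastin alone, and the Era+VK group (n = 3) received VK1 (10 μM) for 1 h before erastin. Erastin was dissolved in DMSO and VK1 in ethyl alcohol. Untreated cells were not analysed here, and each comparison is between erastin after VK1 and erastin alone. The study describes its experiments as independently repeated, but the labels tie no library to a culture or repeat, so p-values measure the spread between these samples, which may be partly technical.

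Amino acids cross the plasma membrane on carriers that differ in substrate and driving ion. Light chains of the SLC7A family, such as SLC7A5, pair with the heavy chain SLC3A2 and exchange large neutral amino acids across the membrane, while the SLC38A carriers of system A take up small neutral amino acids with sodium. SLC1A carriers handle glutamate, aspartate and small neutral amino acids, SLC7A1 takes up arginine and lysine, and SLC6A carriers take up taurine, creatine, glycine and neurotransmitters. SLC36A and several SLC38A proteins sit on lysosomes, where SLC38A9 reports arginine to the growth kinase complex mTORC1. When amino acids run short, the kinase GCN2 phosphorylates eIF2α, and the transcription factor ATF4 is then translated and acts on genes of amino acid uptake and synthesis. In RPE, amino acid and taurine carriers also serve the exchange between the choroidal blood and the photoreceptors.

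Between 24143 and 24601 genes per library had a value above 0, and between 11924 and 12027 genes reached 1 FPKM. Depth is unknown, since only FPKM were used and whole reads could not be recovered from them. Of the RPE markers, OTX2 (27.5 to 31.4 FPKM) and MITF (15.5 to 18.6) were present in every library, whereas RPE65 (at most 0.02), RLBP1 (at most 0.29) and TYR (at most 0.17), which mark mature RPE, were at or near 0. RDH5 (1.40 to 2.48) and PMEL (1.07 to 1.42) were low. BEST1 was uneven within both groups, at 2.65, 0.65 and 56.98 FPKM in Era and at 36.45, 0.60 and 4.8 FPKM in Era+VK, which set Era replicate 3 and Era+VK replicate 1 apart in the summed RPE markers (107 and 91.7 FPKM, against 48.0 to 55.6 in the other libraries). The epithelial keratins KRT8 and KRT18 lay between 171 and 246 FPKM. Summed endothelial markers reached at most 0.45 FPKM and leukocyte markers at most 0.14. Of the neuronal markers, SNAP25 was listed at 0 and SYT1 at 2.68 to 3.65 FPKM. Erythroid markers (10 genes, 6 of them globins) set 2 libraries apart. Their summed level was 0.07 to 0.21 FPKM in Era and 0.14 in Era+VK replicate 1, against 239 in Era+VK replicate 2 and 232 in Era+VK replicate 3. Era+VK replicate 1 alone was therefore also compared with Era, and its values are given where they end a call or turn a direction.

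The transporter transcripts were dominated by 1 gene. SLC7A5 (ENSG00000103257, GRCh38 chromosome 16, 87830023 to 87869488, minus strand in GENCODE 29) had 160 FPKM on average over the 6 libraries and held between 45.6% and 53.3% of the FPKM of all 44 members. Behind it came SLC38A1 (mean 32.7 FPKM), SLC7A1 (24.5), SLC6A8 (21.8), SLC38A10 (17.3) and SLC7A6 (11.8), which completed the 6 genes at or above 10 FPKM. Another 13 genes lay between 1 and 10 FPKM, in the order SLC6A6 (9.27), SLC1A4 (7.98), SLC1A5 (6.29), SLC1A1 (6.22), SLC38A7 (4.47), SLC36A4 (3.16), SLC7A8 (2.89), SLC38A6 (2.27), SLC6A17 (2.1), SLC38A9 (1.92), SLC36A1 (1.92), SLC38A2 (1.66) and SLC38A5 (1.03). Neighbours in this order were separated over all 6 libraries only at SLC7A5 above SLC38A1, SLC6A8 above SLC38A10, SLC38A10 above SLC7A6, SLC1A1 above SLC38A7 and SLC38A7 above SLC36A4. The ranges of every other adjacent pair overlapped. All except SLC38A2 and SLC38A5 reached 1 FPKM in every library.

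**Figure D1:**
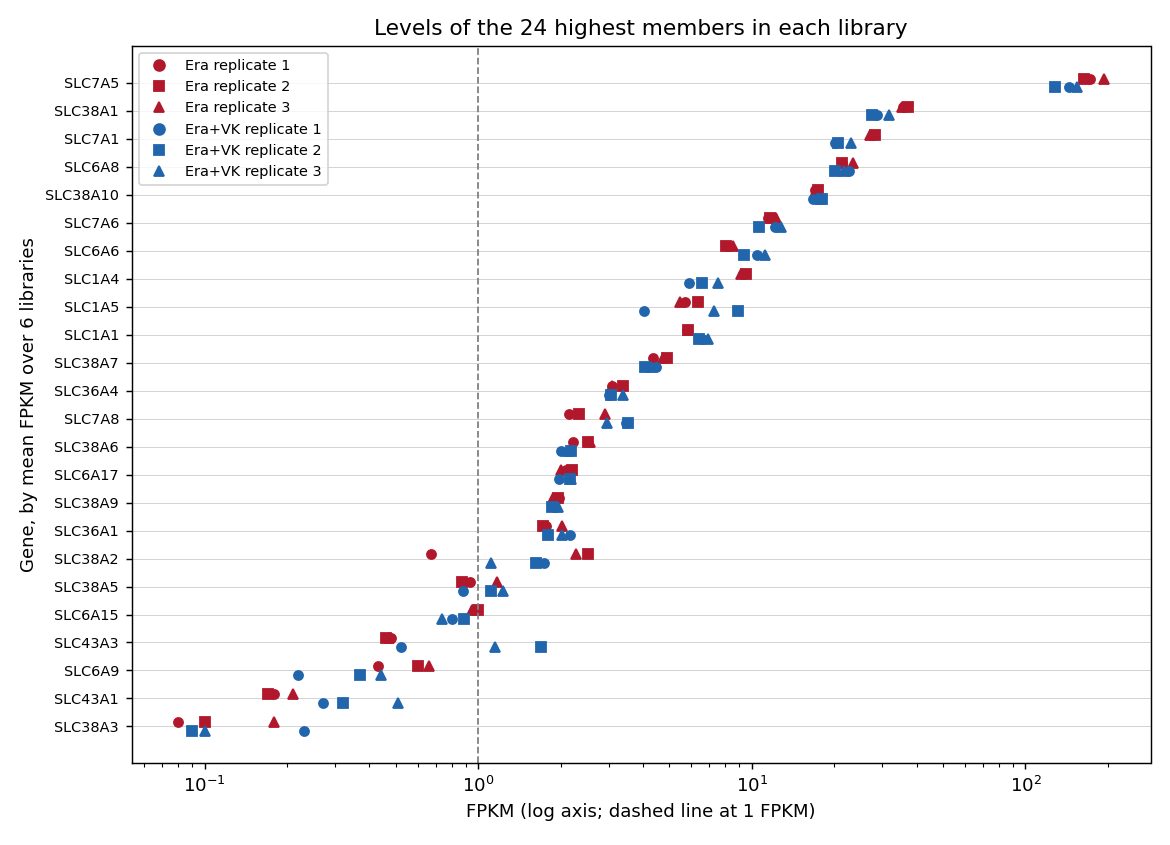
FPKM of the 24 highest members (x axis, log scale; y axis, genes ordered by mean) in each of the 3 Era (red) and 3 Era+VK (blue) libraries, with circles, squares and triangles for replicates 1, 2 and 3. SLC7A5 lies at 128.62 FPKM or more in every library, far from the next gene, and SLC38A2 and SLC1A5 show the widest scatter among the expressed genes.

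The remaining 25 members had a mean below 1 FPKM. Of these, SLC6A15 (0.74 to 1 FPKM), SLC43A3 (0.46 to 1.70), SLC6A9 (0.22 to 0.66) and SLC43A1 (0.17 to 0.51) lay between 0.14 and 1 FPKM on average. A further 17 genes had a mean of at most 0.14 FPKM and no single value above 0.23, namely SLC38A3, SLC7A7, SLC7A4, SLC43A2, SLC1A7, SLC7A2, SLC6A16, SLC6A20, SLC7A9, SLC38A4, SLC6A11, SLC7A3, SLC38A11, SLC6A13, SLC1A3, SLC6A14 and SLC6A19. The glial glutamate transporter SLC1A2, the betaine transporter SLC6A12, the dopamine transporter SLC6A3 and the serotonin transporter SLC6A4 were listed at 0 in all 6 libraries. By family, 4 of 9 SLC7A genes were expressed, 7 of 10 SLC38A, 3 of 14 SLC6A, 3 of 6 SLC1A, 2 of 2 SLC36A and 0 of 3 SLC43A. In some transport systems a single gene held nearly all of the FPKM. Among the carriers of cationic amino acids of the CAT type, SLC7A1 had 24.5 FPKM while SLC7A2, SLC7A3 and SLC7A4 had at most 0.23. Among the glutamate transporters of the SLC1A family, SLC1A1 had 6.22 FPKM while SLC1A2, SLC1A3 and SLC1A7 had at most 0.11.

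Next, Era+VK was compared with Era. Among all 11981 expressed genes, limma on log2(FPKM + 1) with Benjamini-Hochberg adjustment called 74 (0.618%) at an adjusted p under 0.05, 58 lower (0.484%) and 16 higher (0.134%) in Era+VK. The split moved with the setting, to 13 higher of 118 called after median-ratio scaling, 33 of 122 with at least 1 FPKM in every library and 30 of 70 without Era+VK replicate 1. Of the 19 expressed transporters, 1 was called, SLC7A1, and it was lower. At an unadjusted p under 0.05, 7 of the 19 (36.8%) stood out, 4 lower and 3 higher, against 15.8% of all genes. The 3 Era+VK values lay entirely outside the 3 Era values in 8 of the 19 (42.1%), against 22.1% of all genes. In 5 of them, SLC7A5, SLC38A1, SLC7A1, SLC1A4 and SLC38A6, all Era+VK values were below Era (26.3%, against 7.04% of all genes). In the other 3, SLC6A6, SLC1A1 and SLC7A8, all were above (15.8%, against 15.1% of all genes). Over the 19 genes, 10 had a lower and 9 a higher mean in Era+VK, and the median log2 fold change was -0.01, against 0.03 over all genes. On this log2(FPKM + 1) scale the fold changes of low genes come out too small. With bulk RNA, fewer cells of a kind and less RNA per cell cannot be told apart.

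**Figure D2:**
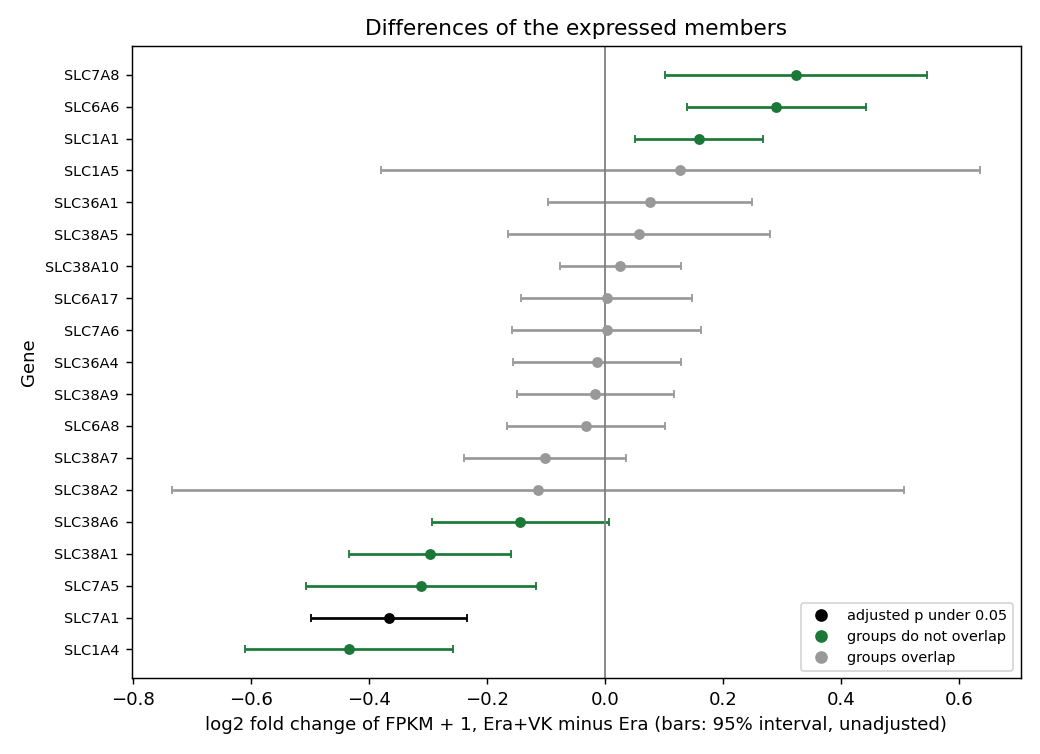
Log2 fold change of FPKM + 1, Era+VK minus Era (x axis), for the 19 expressed genes (y axis, ordered by value), with 95% unadjusted intervals from limma. SLC7A1 (black) is the single gene with an adjusted p under 0.05, green marks the other 7 genes whose groups do not overlap, and grey the 11 genes whose groups overlap.

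SLC7A1, the CAT-type importer of arginine, lysine and ornithine (ENSG00000139514, chromosome 13, 29509410 to 29595688, minus strand), was listed at 27.65, 28.28 and 27.1 FPKM in Era replicates 1 to 3. In Era+VK it was listed at 20.13, 20.64 and 23.08 FPKM. Every Era+VK value was below every Era value. The mean fell from 27.7 ± 0.590 to 21.3 ± 1.58 FPKM (SD, n = 3), or 76.9% of Era (log2 fold change -0.37 ± 0.06 SE, limma adjusted p = 0.0450). An exact two-sided permutation test of the same values gave p = 0.1, the smallest that 3 against 3 allows. The call was lost without any 1 of the Era libraries (adjusted p = 0.158, 0.193 and 0.158 in limma without replicates 1, 2 and 3), without Era+VK replicate 1 (0.108) and without Era+VK replicate 2 (0.0672). It was also lost with no filter on low values (0.155) and with the replicate number as a block (0.1001), while the log2 fold change stayed between -0.44 and -0.33 under all 14 alternatives. For Era+VK replicate 1 alone it was -0.44 (adjusted p = 0.0582, within a range of 0.0248 to 0.193 over the alternatives).

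SLC1A4, an exchanger of alanine, serine, cysteine and threonine (chromosome 2, 64988477 to 65023865, plus strand), had the lowest log2 fold change of the expressed members. It was listed at 9.25, 9.52 and 9.15 FPKM in Era and at 5.88, 6.60 and 7.49 FPKM in Era+VK. Values within Era were tight, and all Era+VK values lay below them, with replicate 1 the lowest. The means were 9.31 ± 0.191 and 6.66 ± 0.806 FPKM (SD, n = 3), a ratio of 71.5%, with a log2 fold change of -0.43 (95% interval -0.61 to -0.26) that missed the threshold (adjusted p = 0.0577 in limma). It passed in 5 alternatives, among them Era+VK replicate 1 alone (log2 fold change -0.58, adjusted p = 0.0401, within a range of 0.0367 to 0.229 over the alternatives).

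SLC1A5 (chromosome 19, 46774883 to 46788594, minus strand), which exchanges glutamine and other neutral amino acids and is the closest relative of SLC1A4 among the members, showed no common direction. Its values were 5.68, 6.36 and 5.45 FPKM in Era, against 4.04, 8.93 and 7.27 FPKM in Era+VK. Era+VK replicate 1 was below every Era library, and replicates 2 and 3, the libraries with erythroid transcripts, were above every Era library. Relative to the Era mean, the log2 differences were -0.44, 0.54 and 0.28 in Era+VK replicates 1, 2 and 3. The group means, 5.83 ± 0.473 and 6.75 ± 2.49 FPKM (SD, n = 3), were not told apart (log2 fold change 0.13, 95% interval -0.38 to 0.64, adjusted p = 0.820 in limma), and with Era+VK replicate 1 alone the fold change was -0.44. The part of the erythroid transcripts in these values was not tested. The ratio of SLC1A4 to SLC1A5 was 1.63, 1.497 and 1.68 in Era and 1.46, 0.739 and 1.03 in Era+VK.

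Promoter sequence was also examined. The amino acid response element, bound by ATF4 with C/EBP partners, has the core TGATGNAA, and this core was searched on both strands of the RefSeq promoter windows (GRCh38.p14, 250 bases before to 50 after each annotated start). It was found in 1270 of 35116 windows (3.62%) and in at least 1 window of 1217 of 27305 gene symbols (4.46%). Of the expressed members, 18 of 19 matched a window by symbol, and 4 of these 18 held the core, each in 1 window. The stretches are shown 5′ to 3′ on the strand of the gene, with the core in capitals, because they include the called gene and both ASC exchangers.
SLC7A1 (minus strand, chr13:29595662-29595721): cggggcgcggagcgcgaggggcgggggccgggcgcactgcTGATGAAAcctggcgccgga
SLC38A1 (minus strand, chr12:46266501-46266560): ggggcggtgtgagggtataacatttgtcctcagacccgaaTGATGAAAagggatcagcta
SLC1A4 (plus strand, chr2:64989352-64989411): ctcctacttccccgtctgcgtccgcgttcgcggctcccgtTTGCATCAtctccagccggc
SLC1A5 (minus strand, chr19:46784892-46784951): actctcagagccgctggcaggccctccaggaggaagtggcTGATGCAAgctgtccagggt
In SLC1A4 the core is read on the opposite strand of the gene. The first capital lies at position 7 relative to the annotated start of its window in SLC7A1, at -4 in SLC38A1, at -7 in SLC1A4 and at -97 in SLC1A5. SLC38A1, SLC1A4 and SLC1A5 also had windows at other annotated starts, which did not hold the core. In GENCODE 29 all 4 cores lie within the bounds of their gene, in a noncoding part of an exon for SLC7A1 and SLC1A5 and outside annotated exons for SLC38A1 and SLC1A4. Of these 4 genes, SLC7A1, SLC38A1 and SLC1A4 had all Era+VK values below Era, and SLC1A5 did not. SLC7A5 and SLC38A6, whose single windows did not hold the core, also had all Era+VK values below Era. The share with all values below was 26.3% of the expressed members and 7.04% of all genes. A link between the core and these levels was not tested. A match is a description of the sequence and not a binding site.

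Among the light chains that pair with SLC3A2, SLC7A5 and SLC7A8 had groups that did not overlap, in opposite directions, and neither passed the threshold. SLC7A5, the main importer of leucine and other large neutral amino acids, was listed at 172.52, 164.16 and 193.96 FPKM in Era and at 144.02, 128.62 and 154.29 FPKM in Era+VK. All Era+VK values were below all Era values, by the narrowest margin between Era replicate 2 and Era+VK replicate 3. The means of 177 ± 15.4 and 142 ± 12.9 FPKM (SD, n = 3; 80.5% of Era) gave a log2 fold change of -0.31 (95% interval -0.51 to -0.12) and an adjusted p of 0.154 in limma, over the threshold. SLC7A8 (chromosome 14, 23125295 to 23183674, minus strand), a light chain with a broader range of neutral substrates, was listed at 2.14, 2.33 and 2.91 FPKM in Era and at 3.48, 3.52 and 2.96 FPKM in Era+VK. All Era+VK values were higher, replicate 3 only just, and after median-ratio scaling the groups overlapped. Its log2 fold change was 0.32 (95% interval 0.10 to 0.55, adjusted p = 0.185 in limma), at 135% of Era. The ratio of SLC7A5 to SLC7A8 was 80.6, 70.5 and 66.7 in Era and 41.4, 36.5 and 52.1 in Era+VK. Its groups could not overlap, since all SLC7A5 values were lower and all SLC7A8 values higher, so the ratio is no further result. SLC7A6, which exchanges cationic for neutral amino acids, was listed at 11.44, 11.67 and 12.30 FPKM in Era and at 12.12, 10.64 and 12.81 FPKM in Era+VK, so that the groups overlapped (log2 fold change 0.003, 95% interval -0.16 to 0.16). It shares 3371 exonic bases with SLC7A6OS on the opposite strand, itself at 4.03 to 6.23 FPKM, and reads of the pair cannot be told apart without strand. The pseudogenes SLC7A5P1 (0.02 to 0.25 FPKM) and SLC7A5P2 (0.13 to 1.08 FPKM) are near copies of SLC7A5, and how their shared reads were assigned is not known.

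The heavy chain SLC3A2, with which these light chains reach the membrane, was listed at 46.14, 47.14 and 50.47 FPKM in Era and at 37.59, 40.77 and 41.34 FPKM in Era+VK. All Era+VK values were below Era (47.9 ± 2.27 and 39.9 ± 2.02 FPKM, SD, n = 3), with a log2 fold change of -0.26 and an adjusted p of 0.0923 in limma. The other heavy chain, SLC3A1, was at 0 in Era and at most 0.04 FPKM in Era+VK. SLC7A5 transcripts exceeded those of SLC3A2 by 3.15 to 3.84 times over the 6 libraries, and the groups overlapped in this ratio. SLC7A11, the cystine-importing light chain that erastin targets and which was left out of the members, was listed at 7.22, 9.29 and 7.84 FPKM in Era and at 4.50, 4.41 and 5.33 FPKM in Era+VK. It fell (log2 fold change -0.66, limma adjusted p = 0.0337), and this call was lost without any 1 of the Era libraries (adjusted p = 0.0832, 0.111 and 0.133), without Era+VK replicate 1 (0.0911) and without Era+VK replicate 2 (0.0650). It was also lost with Era+VK replicate 1 alone (0.126), with the replicate block (0.0714) and with no filter (0.161), and the lowest adjusted p over the alternatives was 0.0179.

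**Figure D3:**
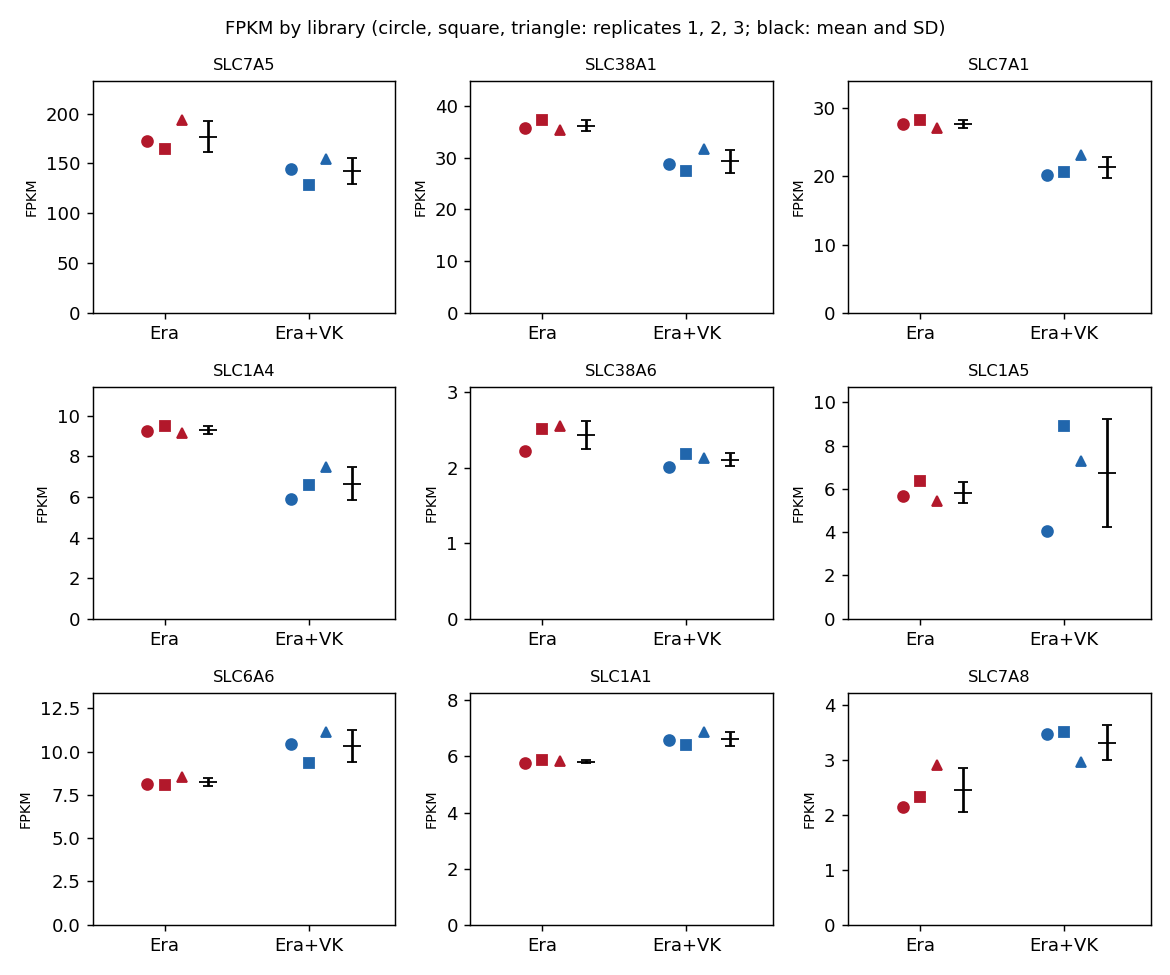
FPKM by library (y axis, from 0) in Era (red) and Era+VK (blue) for the 8 genes whose groups do not overlap and for SLC1A5, with circle, square and triangle for replicates 1, 2 and 3 and mean and SD in black. SLC7A5, SLC38A1, SLC7A1, SLC1A4 and SLC38A6 sit lower in Era+VK, SLC6A6, SLC1A1 and SLC7A8 sit higher, and SLC1A5 lies on both sides of Era.

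In system A, the highest member was SLC38A1, a sodium-coupled importer of glutamine, alanine and other small neutral amino acids (chromosome 12, 46183063 to 46270017, minus strand). Its values were 35.65, 37.33 and 35.41 FPKM in Era, against 28.73, 27.39 and 31.74 FPKM in Era+VK. The groups did not overlap, and Era+VK replicate 2 was the lowest. The means were 36.1 ± 1.05 and 29.3 ± 2.23 FPKM (SD, n = 3; 81.1% of Era), with a log2 fold change of -0.30 (95% interval -0.43 to -0.16, adjusted p = 0.0826 in limma, 0.0529 to 0.273 over the alternatives). SLC38A2, a neighbouring system A gene (46358189 to 46372867) known to be induced when amino acids are scarce, showed the widest spread of the expressed members. It was listed at 0.67, 2.52 and 2.27 FPKM in Era and at 1.74, 1.63 and 1.11 FPKM in Era+VK. Era replicate 1 was the lowest of all and the other Era libraries the highest, so that no direction could be read (log2 fold change -0.11, 95% interval -0.73 to 0.51). SLC38A4 was at most 0.03 FPKM.

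None of the other SLC38A genes passed the threshold in limma. SLC38A10 was listed at 17.02, 17.40 and 17.09 FPKM in Era and at 16.74, 18.01 and 17.78 FPKM in Era+VK (log2 fold change 0.03, 95% interval -0.08 to 0.13). SLC38A7, which carries glutamine out of lysosomes, was at 4.35, 4.90 and 4.73 against 4.48, 4.06 and 4.29 FPKM (-0.10, interval -0.24 to 0.04). SLC38A9, the lysosomal arginine sensor, was at 1.98, 1.96 and 1.88 against 1.90, 1.86 and 1.96 FPKM (-0.02, interval -0.15 to 0.12). In these 3 genes the groups overlapped. SLC38A6 (chromosome 14, 60981114 to 61083733, plus strand) was the exception, at 2.22, 2.52 and 2.56 FPKM in Era, against 2.01, 2.18 and 2.13 FPKM in Era+VK. All its Era+VK values were lower, yet the log2 fold change was -0.14 with an interval that included 0 (-0.29 to 0.01, adjusted p = 0.338 in limma), and 245 exonic bases are shared with TRMT5 on the opposite strand (3.48 to 4.38 FPKM). SLC38A5, a system N carrier of glutamine and histidine, was at 0.93, 0.87 and 1.17 against 0.88, 1.11 and 1.23 FPKM, with overlapping groups (0.06, interval -0.16 to 0.28).

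Higher levels in Era+VK were seen for the taurine transporter SLC6A6 (chromosome 3, 14402576 to 14489349, plus strand), listed at 8.12, 8.06 and 8.51 FPKM in Era and at 10.46, 9.33 and 11.16 FPKM in Era+VK. The groups did not overlap, and all 3 Era+VK libraries stood above the highest Era library. The means were 8.23 ± 0.244 and 10.3 ± 0.923 FPKM (SD, n = 3; 125% of Era), with a log2 fold change of 0.29 (95% interval 0.14 to 0.44) and an adjusted p of 0.111 in limma, over the threshold. The creatine transporter SLC6A8, the most abundant SLC6A member, was at 21.37, 21.42 and 23.33 FPKM in Era and at 22.62, 20.18 and 21.80 FPKM in Era+VK. Its groups overlapped (log2 fold change -0.03, 95% interval -0.17 to 0.10). SLC6A17, a transporter of neutral amino acids known from synaptic vesicles, was at 2.09, 2.21 and 2 against 1.97, 2.16 and 2.19 FPKM (0.003, interval -0.14 to 0.15). The glutamate and cysteine transporter SLC1A1 (chromosome 9, 4490444 to 4587469, plus strand) was at 5.77, 5.86 and 5.83 FPKM in Era and at 6.57, 6.40 and 6.89 FPKM in Era+VK. Its Era values were nearly equal and all Era+VK values lay above them, with a log2 fold change of 0.16 (95% interval 0.05 to 0.27, adjusted p = 0.182 in limma).

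Both expressed proton-coupled carriers overlapped between the groups. SLC36A4 was at 3.08, 3.38 and 3.08 FPKM in Era and at 3, 3.06 and 3.37 FPKM in Era+VK (log2 fold change -0.01, 95% interval -0.16 to 0.13). SLC36A1, which exports small amino acids from lysosomes, was at 1.77, 1.72 and 2.02 against 2.16, 1.80 and 2.02 FPKM (0.08, interval -0.10 to 0.25).

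The members under 1 FPKM were not tested. Of these 25, 1 had all Era+VK values below Era and 2 had all above. The same share over all genes under 1 FPKM was not computed, so these separations carry no weight. SLC43A3, a purine nucleobase transporter despite its family, was listed at 0.48, 0.46 and 0.47 FPKM in Era and at 0.52, 1.70 and 1.15 FPKM in Era+VK. The excess lay in Era+VK replicates 2 and 3, the libraries with erythroid transcripts, while replicate 1 was barely above Era, and their part in it was not tested. SLC43A1, a facilitative carrier of large neutral amino acids, was at 0.18, 0.17 and 0.21 against 0.27, 0.32 and 0.51 FPKM, all above Era. SLC6A15, a transporter of branched-chain amino acids and proline, was at 0.99, 1 and 0.95 against 0.80, 0.89 and 0.74 FPKM, all below Era. The glycine transporter SLC6A9 was at 0.43, 0.60 and 0.66 against 0.22, 0.37 and 0.44 FPKM, with overlapping groups.

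Summed over all 44 members, the transporters reached 345 ± 16.1 FPKM with erastin alone and 299 ± 18.7 FPKM with VK1 (SD, n = 3), which was between 0.119% and 0.153% of all FPKM in a library. The sum of every Era library, lowest 335, was above that of every Era+VK library, highest 319. Most of the gap came from SLC7A genes, with 219 ± 15.5 and 179 ± 14.8 FPKM, and from SLC38A genes, with 65.3 ± 2.36 and 57.8 ± 2.21 FPKM. SLC7A5 alone had 177 ± 15.4 and 142 ± 12.9 FPKM and was not called (adjusted p = 0.154 in limma). The sum thus mainly follows SLC7A5 and does not speak for the class. Of the 19 expressed members, 9 had a higher mean in Era+VK. SLC6A genes (34.0 ± 1.34 and 35.2 ± 1.89 FPKM), SLC1A genes (21.0 ± 0.731 and 20.1 ± 3.05) and SLC36A genes (5.02 ± 0.144 and 5.14 ± 0.266) had sums that overlapped between the groups. SLC43A genes together had 0.757 ± 0.0737 FPKM in Era, against 1.57 ± 0.656 FPKM in Era+VK, where replicate 1 (0.84) equalled the highest Era library and replicates 2 and 3, with the erythroid transcripts, stood at 2.11 and 1.76.

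**Figure D4:**
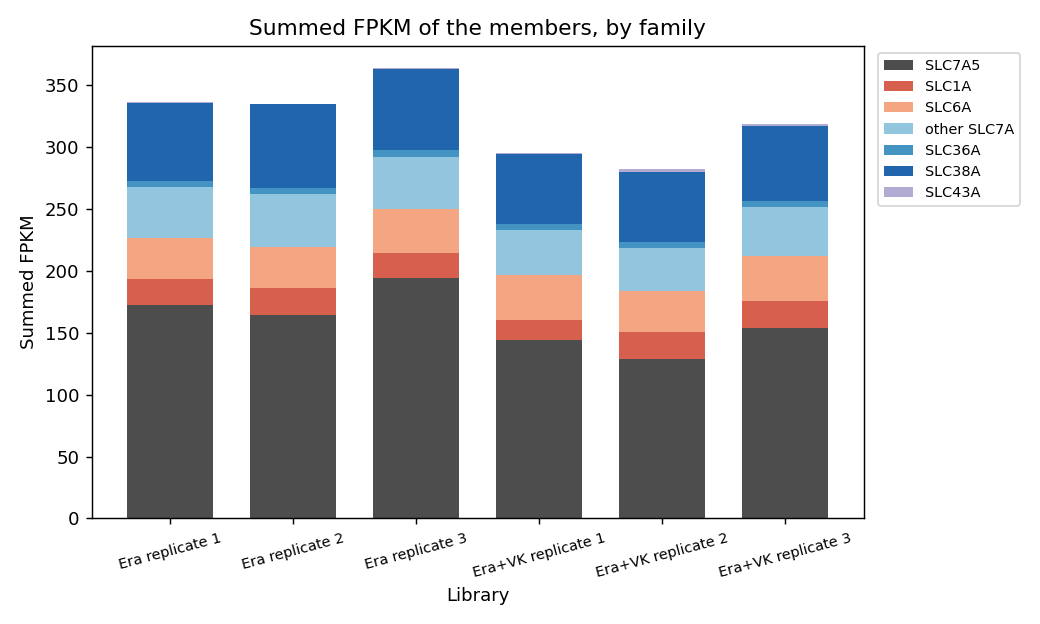
Summed FPKM of the 44 members (y axis, from 0) in each library (x axis), stacked by family with SLC7A5 shown apart from the other SLC7A genes. SLC7A5 makes up 45.6% to 53.3% of each bar, and the 3 Era bars (335 to 364 FPKM) are taller than the 3 Era+VK bars (282 to 319 FPKM).

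Related gene lists were read against the same background of 0.618% called and a median log2 fold change of 0.03. Of the regulators of the amino acid response, 14 of 14 were tested and 2 were called, both lower (median -0.05). At an unadjusted p under 0.05 there were 4 of the 14, all lower, against 15.8% of all genes. In 6 the groups did not overlap, again all lower (42.9%, against 7.04% of all genes lower and 22.1% in either direction). ATF4 was listed at 134.26, 138.59 and 145.67 FPKM in Era and at 88.18, 98.78 and 98.33 FPKM in Era+VK (log2 fold change -0.55, limma adjusted p = 0.0128). CEBPG, a C/EBP partner of ATF4, was at 7.40, 8.61 and 8.14 against 4.90, 5.42 and 5.30 FPKM (-0.54, adjusted p = 0.0196 in limma). Both fell without overlap of the groups. Without any 1 of the Era libraries neither was called (adjusted p = 0.0683, 0.101 and 0.0732 for ATF4 and 0.0677, 0.107 and 0.0930 for CEBPG, within 0.00644 to 0.101 and 0.00996 to 0.109 over the alternatives), and CEBPG was also not called without Era+VK replicate 3 (0.0541) or with Era+VK replicate 1 alone (0.1004). With no filter on low values neither passed (0.0877 for ATF4 and 0.109 for CEBPG).

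Of the genes of amino acid sensing by mTORC1, 36 of 37 were matched and 33 tested, and limma called 0 (median 0.01). At an unadjusted p under 0.05, which 15.8% of all genes reached, there were 7 of the 33, 4 lower and 3 higher. Groups did not overlap in 5, 4 lower and 1 higher (15.2%). Of all genes 22.1% did not overlap, 7.04% lower and 15.1% higher. Of the mitochondrial amino acid carriers, limma called 0 of 11 tested (median 0.02), with 4 at an unadjusted p under 0.05, all higher. In 4 the groups did not overlap, all higher (36.4%, against 15.1% of all genes higher). Of the regulators of transporters by ubiquitin and traffic, limma called 0 of 11 tested (median 0.05), with 1 at an unadjusted p under 0.05, which was higher. In 2 the groups did not overlap, both higher (18.2%, against 15.1% of all genes higher). Of 7 tested amino acid carriers of other kinds at the plasma membrane and lysosome, 1 was called, SLC7A11 (median 0.05). This list also counts the heavy chain SLC3A2. Among the 7 genes, 2 had an unadjusted p under 0.05, both lower. They were SLC7A11 and SLC3A2, already described above, and add no separate result. The groups did not overlap in 71.4% of the 7, 3 lower, with SLC7A11 and SLC3A2 among these, and 2 higher. Over all 157 tested SLC genes outside the members, the median was 0.04. The groups did not overlap in 31.8% of them, 10 lower and 40 higher. Of all genes, 7.04% were lower and 15.1% higher without overlap. Limma called 2 of the 157, both lower (1.27%). These were again SLC7A11, left out of the members by the rule, and SLC22A3, a polyspecific organic cation transporter, at 2.74, 2.67 and 2.68 FPKM in Era, against 1.65, 1.87 and 1.61 FPKM in Era+VK (log2 fold change -0.45, limma adjusted p = 0.0296). The call of SLC22A3 was lost without any 1 of the Era libraries (limma adjusted p = 0.134, 0.137 and 0.132, within 0.0145 to 0.137 over the alternatives), without Era+VK replicate 1 (0.0805) and without Era+VK replicate 3 (0.0856). It was also lost with Era+VK replicate 1 alone (0.115), with the replicate block (0.0824) and with no filter (0.130).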

How the data were processed

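The authors deposited FPKM per gene for each of the 6 libraries, with 2 decimals. The submitters' processing notes list cutadapt, HISAT2 and StringTie 2.1.6, and as genome the mouse build mm10, whereas the rows carry human Ensembl identifiers. Alignment settings, annotation release and strand use are not given in the sources used here. The labels number the cell line upwards from sample to sample while all titles name ARPE-19, and all were taken as ARPE-19. FPKM are shares of a library, and abundant genes that change shift all others.

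Genes averaging 1 FPKM or more were tested two-sided in R 4.3.3 with limma 3.58.1 (trend) on log2(FPKM + 1), without a replicate block, with Benjamini-Hochberg adjustment over 11981 genes and a threshold of 0.05. Every expressed member was named, and members under 1 FPKM by their range. From the lists, called genes and the partners SLC3A1, SLC3A2 and SLC7A11 were named. Members and lists were chosen with earlier results of these data known. Alternatives were a pseudocount of 0.1 FPKM, other filters, 3 rescalings, a replicate block and each library left out. Era+VK replicate 1 alone was added after the data were seen. Positions are from GENCODE 29 (GRCh38), matched by Ensembl identifier for 44 of 44 members.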

Additional observations from a re-analysis of the deposited data

How the results depend on the processing

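The count of all genes called, 74, was 1 with no filter on low values, 122 with at least 1 FPKM in every library, 113 after quantile normalization, 118 after median-ratio scaling, 42 with the replicate block, 35 with Era+VK replicate 1 alone, and 2 to 70 with each library left out. The count of transporters called, 1, was 2 with at least 1 FPKM in every library, after quantile normalization and after median-ratio scaling (SLC1A4 beside SLC7A1), 0 with no filter and with the replicate block, and 0 to 2 with each library left out. The genes called in the smaller lists, 3 (SLC7A11, ATF4 and CEBPG), were 0 to 3 with each library left out. Deviations from the group mean correlated at 0.07, 0.10 and 0.02 between same-numbered libraries and at -0.11 to 0.04 between others. Era replicates 1 and 2 each correlated best with the Era+VK library of the same number. Of the Era+VK libraries, Era replicate 3 correlated best with replicate 1. Whether the replicate numbers pair the libraries is not settled by these small values.

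Of 264 combinations of an expressed transporter and 1 of 14 alternatives, 223 kept the direction and the side of the threshold, 8 lost the call (SLC7A1), 5 gained it (SLC1A4), and 28 turned the sign, in 8 genes with adjusted p over 0.8 in limma. With Era+VK replicate 1 alone the log2 fold change turned to 0.0370 for SLC6A8, -0.0345 for SLC38A10, -0.436 for SLC1A5, -0.0613 for SLC6A17, 0.0326 for SLC38A2 and -0.0790 for SLC38A5. After median-ratio scaling and quantile normalization it turned to -0.00883 and -0.00577 for SLC38A10, -0.0312 and -0.0293 for SLC7A6, and -0.0222 and -0.0326 for SLC6A17. With each library left out it ranged from -0.0672 to 0.0115 for SLC6A8, -0.0505 to 0.0728 for SLC7A6, -0.0790 to 0.410 for SLC1A5, -0.0519 to 0.0211 for SLC36A4, -0.0204 to 0.0350 for SLC6A17 and -0.454 to 0.0843 for SLC38A2. The cause was not tested. No setting moved the median of all genes by 0.1. With 1 library left in a group, that library was assumed to vary like the others. FPKM give no depth, so counting error of low members is unknown.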
